A study of Rattus norvegicus with 24 samples.

Results

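The Cyp1 family of cytochrome P450 enzymes was followed across a TCDD dose series in rat liver. The members were Cyp1a1 (ENSRNOG00000019500), Cyp1a2 (ENSRNOG00000016173) and Cyp1b1 (ENSRNOG00000040287), which are 3 of the 26404 gene IDs in each count table. They were chosen by gene ID with their dose response in these libraries already known, so their levels and fold changes are a description and no p-value is given for them. All 3 passed the low-count filter, Cyp1b1 through the groups in which it was high. The livers came from 24 female Sprague-Dawley rats, an outbred stock, with a labelled age of 57 days. By oral gavage at intervals of 4 days they received sesame oil, the vehicle, or 1 of 7 TCDD doses (10, 3, 1, 0.3, 0.1, 0.03 and 0.01 µg/kg), and the tissue was taken on day 28. Each of the 8 groups held 3 libraries, described by the series as biological replicates. The files pair no ID with a symbol, so the names of the 3 members are those given with their IDs, and hepatocyte markers and other genes of the pathway were not matched here.

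TCDD, 2,3,7,8-tetrachlorodibenzo-p-dioxin, binds the aryl hydrocarbon receptor, a transcription factor held in the cytosol. The bound receptor enters the nucleus, pairs with ARNT and binds dioxin response elements, which share the core GCGTG, near its target genes, and the Cyp1 genes are its best known targets. The enzymes oxidise polycyclic aromatic compounds, oestrogens and polyunsaturated fatty acids. Cyp1a2 is a constitutive enzyme of the hepatocyte, Cyp1a1 is nearly silent in liver without an inducer, and Cyp1b1 is known mainly from tissues outside the liver and from non-parenchymal cells. In whole liver, a change in the number of cells of a type and a change in RNA per cell cannot be told apart.

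Promoters are shown because the receptor acts through response elements near these genes. RefSeq sequences of build GRCr8 were found for 2 of the members, Cyp1a2 and Cyp1b1, and were not found for Cyp1a1. The build behind the counts was not given in the sources used here. Cyp1a2 and Cyp1a1 are neighbours on chromosome 8 in that assembly, with 0 annotated genes between them, and Cyp1b1 is on chromosome 6. The 250 bases before the Cyp1a2 start, chr8:66978150-66978399 on the minus strand, hold a TATAAA match, in capitals, from 39 to 34 bases before the start.
Cyp1a2: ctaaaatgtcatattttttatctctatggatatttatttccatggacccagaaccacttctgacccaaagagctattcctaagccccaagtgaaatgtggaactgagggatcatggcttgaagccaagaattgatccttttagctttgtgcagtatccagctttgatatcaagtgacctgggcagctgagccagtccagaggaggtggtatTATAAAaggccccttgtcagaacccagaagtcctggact
The same window before the Cyp1b1 start held 2 GCGTG matches, 1 on each strand, in capitals in these stretches of 30 bases. The first is chr6:21094472-21094501 and the second chr6:21094533-21094562, both written on the plus strand.
Cyp1b1 upstream match, minus strand: cgtcccgcccctCACGCcccaccccttaag
Cyp1b1 match near the start, plus strand: agtagagggatgGCGTGtcgcctctggggt
The match from 20 to 16 bases before the start also fits the longer form TNGCGTG. In RefSeq the Cyp1b1 gene begins upstream of this window, so another transcript may cover these matches. On both strands, 25.9% of the 33469 promoters of that length held GCGTG, 8.12% held 2 or more matches, 4.09% held TNGCGTG and 12.9% held TATAAA. The Cyp1a2 window held 0 GCGTG matches and the Cyp1b1 window 0 TATAAA matches, which says only that these letters are not in these windows. A match overlaps its longer form and is not evidence of binding.

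Gene counts per library ranged from 11816273 to 15804887, so that 3 counts, the floor taken for detection, corresponded to 0.174 to 0.262 CPM (counts per 1e+06 gene counts). CPM values were scaled between libraries by TMM, a trimmed mean of ratios. CPM does not correct for transcript length, so levels are compared here between doses of 1 gene and not between genes.

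Cyp1a1, the P450 most used as a readout of receptor activation, went from trace levels in vehicle to over 1% of all gene counts. The 3 vehicle libraries held 19.1, 11.4 and 11.5 CPM (247, 142 and 136 counts), a mean of 14.0 ± 4.39 CPM (SD, n = 3). At 0.01 µg/kg the libraries held 376, 522 and 72.5 CPM, a mean of 323 ± 229 CPM, and all 3 lay above the highest vehicle library although replicate 3 stood far below the other two. The 0.03 µg/kg group followed with 1075, 1487 and 639 CPM, and the 0.1 µg/kg group with 3523, 3269 and 2591 CPM. The groups at 0.1 and 0.3 µg/kg overlapped, since replicate 3 of the latter held 3009 CPM against 5055 and 5951 CPM in the other two. Rats given 1 µg/kg had 10662, 10115 and 9095 CPM. The highest group was 3 µg/kg, with 12843, 12110 and 11962 CPM, where Cyp1a1 made up 1.18% ± 0.0809 of gene counts (SD, n = 3). The libraries at 10 µg/kg held 10452, 9096 and 10262 CPM. This range overlapped that at 1 µg/kg and lay below every library at 3 µg/kg.

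Cyp1a2, which carries much of the basal oxidation of arylamines and oestrogens in liver, was already abundant in vehicle. The vehicle libraries held 1561, 866 and 844 CPM, a mean of 1090 ± 408 CPM (SD, n = 3). Replicate 1 was the high library here, as it was for Cyp1a1. At 0.01 µg/kg the values were 2260, 2865 and 1453 CPM, and replicate 3 lay below the highest vehicle library, so these groups overlapped. Every library at 0.03 µg/kg (3697, 5133 and 3048 CPM) was above every library of vehicle and 0.01 µg/kg. The groups of 0.1, 0.3 and 1 µg/kg stood at 8133 ± 683, 12137 ± 1935 and 27169 ± 1682 CPM (SD, n = 3), each without overlap with the group below. The highest group was again 3 µg/kg, with 33545, 34862 and 34152 CPM, or 3.27% ± 0.171 of gene counts. At 10 µg/kg the libraries held 28804, 28775 and 27586 CPM, overlapping those at 1 µg/kg and below all 3 at 3 µg/kg. Both relations depended on scaling. Without TMM the 10 µg/kg libraries ran from 29922 to 31871 CPM. They were then above the 24765 to 27274 CPM at 1 µg/kg and overlapped those at 3 µg/kg. The share of gene counts taken by Cyp1a1 and Cyp1a2 together was 0.108% ± 0.0428 without TCDD and 4.45% ± 0.231 in the 3 µg/kg group (SD, n = 3).

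Cyp1b1, which hydroxylates oestradiol at its 4-position, was below the floor of 3 counts in vehicle, with 2 counts in each of the 3 libraries. At 0.01 µg/kg the libraries held 4, 3 and 3 counts, at or next to the floor, and no fold is given. At 0.03 µg/kg they held 28, 8 and 1 counts, so that replicate 1 was above vehicle and replicate 3 was not. From 0.1 µg/kg on every library stood above every vehicle library, with 44, 84 and 195 counts at 0.1 µg/kg (3.63, 6.60 and 14.6 CPM). The 0.3 µg/kg libraries held 111, 141 and 156 counts, from 9.11 to 12.3 CPM, and overlapped those at 0.1 µg/kg. Values at 1 µg/kg were 38.5, 88.8 and 81.3 CPM, all above 0.3 µg/kg. The libraries at 3 µg/kg spread from 56.4 CPM in replicate 2 to 134 CPM in replicate 3 and 196 CPM in replicate 1, and overlapped those at 1 µg/kg. The highest group was 10 µg/kg, with 334, 297 and 276 CPM, all above 3 µg/kg.

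**Figure D1:**
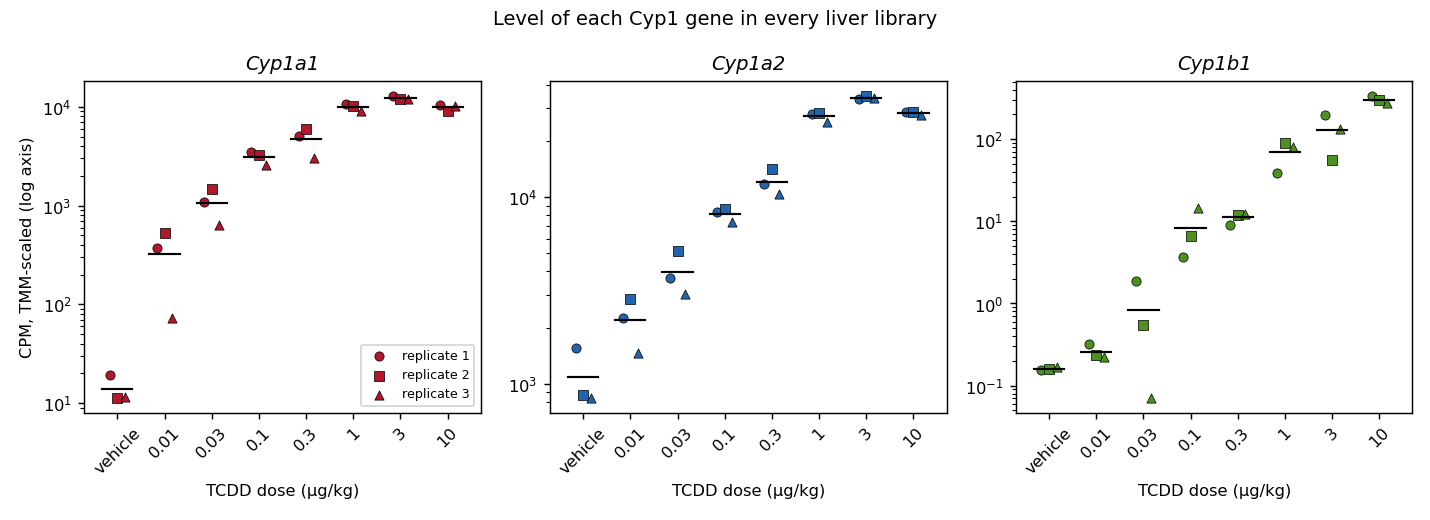
CPM (log axis) of Cyp1a1, Cyp1a2 and Cyp1b1 in each library by TCDD dose in µg/kg, with a marker per replicate number and a bar at each group mean (n = 3). Cyp1a1 and Cyp1a2 are highest at 3 µg/kg, and Cyp1b1 is highest at 10 µg/kg, while the Cyp1b1 points in vehicle each rest on 2 counts.

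The lowest dose at which each member was called is given as a description, since no test compared the members' thresholds and the doses depend on the tool. In the fit across all 12496 genes tested, 1 of the 3 members, Cyp1a1, was called higher than vehicle at 0.01 µg/kg (edgeR, adjusted p below 0.05), where 0.008% of all genes were. At 0.03 µg/kg 2 of 3 were called, Cyp1a1 and Cyp1a2, against 0.016% of all genes. All 3 were called from 0.1 µg/kg on, where the calls took in 0.872%, 1.92%, 1.7%, 7.94% and 14.7% of all genes in order of dose. These shares depended on single libraries. Without vehicle replicate 2 the genes called in either direction numbered 9 in place of 115, 15 in place of 258, 66 in place of 264 and 812 in place of 1657 for the doses of 0.1, 0.3, 1 and 3 µg/kg. The highest numbers were 147 without vehicle replicate 3, 465 without replicate 3 of 0.3 µg/kg and 543 without replicate 1 of 1 µg/kg. The members were called under each of these omissions. These counts restate how the members were chosen. The call of Cyp1a1 at 0.01 µg/kg and that of Cyp1a2 at 0.03 µg/kg were lost in a fit of only the 2 groups compared, with log2 fold changes of 4.52 and 1.86 that were close to the 4.53 and 1.86 of the fit to all groups. Of all genes, that fit called 0 for the lower of these doses and 3 for the higher. Cyp1b1 did not pass its low-count filter at either dose. By DESeq2, 15 genes were called at 0.01 µg/kg, Cyp1a1 and Cyp1a2 among them. By separation of the libraries alone, Cyp1a1 and Cyp1b1 were above all vehicle libraries at 0.01 µg/kg, as were 5.47% of all genes, and for Cyp1b1 this rested on 3 or 4 counts a library. At 0.03 µg/kg Cyp1a1 and Cyp1a2 stood apart from vehicle in this way, as did 6.2% of all genes. From 0.1 µg/kg on all 3 members did, beside 9.8%, 10.7%, 10.7%, 14.9% and 21.4% of all genes in order of dose.

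The size of the response differed widely, with fold changes against vehicle of 878 for Cyp1a1 and 31.4 for Cyp1a2 in their highest group. Cyp1a1 was 23.1-fold higher in the 0.01 µg/kg group (log2 fold change 4.53, SE 0.498), 223-fold in the 0.1 µg/kg group (7.80, SE 0.576) and 878-fold in the 3 µg/kg group (9.78, SE 0.623). Cyp1a2 was 2.01-fold higher at 0.01 µg/kg (log2 fold change 1.01, SE 0.239, not called), 7.46-fold at 0.1 µg/kg (2.90, SE 0.254) and 31.4-fold at 3 µg/kg (4.97, SE 0.279). For Cyp1b1 the ratio was taken from summed counts, with an exact 95% interval that covers counting error only, because 6 counts stood in vehicle. It was 52.5 (23.9 to 144), 426 (195 to 1161) and 1871 (859 to 5098) in the groups of 0.1, 1 and 10 µg/kg. The vehicle libraries were below the floor, and with each set at its 3 counts the ratios were 35.0, 284 and 1247. At 0.1 µg/kg replicate 3 held 195 of the 323 counts, and without it the fitted log2 fold change was 4.91 in place of 5.61. All 7 doses are compared with the same 3 vehicle libraries, so the fold changes of a member share any error in its vehicle level. Each SE rests on a spread shared by the 8 groups and does not follow that of a single dose.

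The slope was steep at the low end for Cyp1a1, shallower for Cyp1a2 and, for Cyp1b1, steep in separate stretches. Per 10-fold increase in dose, the log2 level of Cyp1a1 was higher by 3.61 between 0.01 and 0.03 µg/kg, 2.97 between 0.03 and 0.1 µg/kg and 1.21 between 0.1 and 0.3 µg/kg. That of Cyp1a2 was higher by 1.79, 1.99 and 1.21 over the same steps. Between 0.3 and 1 µg/kg the slopes were 2.09 and 2.22, and between 1 and 3 µg/kg 0.64 and 0.69. Cyp1b1 had slopes of 6.29 between 0.03 and 0.1 µg/kg, 0.88 between 0.1 and 0.3 µg/kg, 5.05 between 0.3 and 1 µg/kg, and 1.86 and 2.35 over the last steps. Its slope from 0.03 to 0.1 µg/kg rests on 28, 8 and 1 counts at the lower dose. Over omissions of 1 library, that step ran from 2.59 without replicate 3 of 0.1 µg/kg to 4.68 without replicate 1 of 0.03 µg/kg, around a log2 difference of 3.29. The step from 1 to 3 µg/kg ran from 0.47 without replicate 1 to 1.26 without replicate 2 of 3 µg/kg, around 0.89. Between 0.1 and 0.3 µg/kg the log2 differences were 0.58 (SE 0.426) for Cyp1a1, 0.58 (SE 0.237) for Cyp1a2 and 0.42 (SE 0.486) for Cyp1b1, and the slopes were lower than over the step on either side. For Cyp1a1 this rested on replicate 3 of 0.3 µg/kg, since without it the slope was 1.71 from 0.1 to 0.3 µg/kg and 1.63 from 0.3 to 1 µg/kg. The Cyp1b1 difference ranged from 0.07 without replicate 1 to 1.12 without replicate 3 of 0.1 µg/kg.

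Calls between adjacent doses also concern members chosen with their dose response known, so they are listed as a description. A single step was called for 1 of the 3 members: Cyp1b1 was higher at 1 than at 0.3 µg/kg (log2 fold change 2.64, SE 0.486), where 0.056% of all genes were called higher. That call was lost on leaving out any 1 of the 3 libraries at 0.3 µg/kg or replicate 2 or 3 at 1 µg/kg, without TMM scaling, and in a fit of only those 2 groups. The log2 fold change itself was 2.42 to 2.93 over omissions, 2.57 without TMM and 2.64 in the fit of those groups. With DESeq2 and with the replicate number as a block it held and Cyp1a2 was called too, among 28 and 9 genes in all against 7. DESeq2 also called Cyp1a2 and Cyp1b1 between 0.03 and 0.1 µg/kg, among 12 genes in all, a step for which edgeR called 0 of 3 members and 0.008% of all genes higher. edgeR called 0 members over the other steps, including that from 1 to 3 µg/kg (0.144% of all genes). By separation of libraries, Cyp1a1 and Cyp1a2 were higher at 0.03 than at 0.01 µg/kg (4.15% of all genes), and all 3 members were higher at 0.1 than at 0.03 µg/kg (6.69%). From 0.1 to 0.3 µg/kg this held for Cyp1a2 alone of the 3 (5.43%), from 0.3 to 1 µg/kg for all 3 (5.62%) and from 1 to 3 µg/kg for Cyp1a1 and Cyp1a2 (7.2%).

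A Hill curve was fitted to the 24 libraries of each member to place the middle of its dose range. The midpoint dose, at which the curve is midway between its bottom and its top, was 0.265 µg/kg for Cyp1a1 (0.172 to 0.409 within 1 SE) and 0.490 µg/kg for Cyp1a2 (0.327 to 0.734 within 1 SE). These intervals overlapped, and the order of the midpoints turned around when the Hill slope was fixed at 1 (0.396 and 0.358 µg/kg). The fitted Hill slopes were 1.14 for Cyp1a1 and 0.884 for Cyp1a2, and the tops were 11154 and 35430 CPM. These curves only rise with dose and missed levels at the top. Near 10 µg/kg (at 9.68) the Cyp1a2 curve stood at 33136 CPM, where the libraries held 27586 to 28804 CPM. Near 3 µg/kg (at 2.96) the Cyp1a1 curve stood at 10487 CPM, where the libraries held 11962 to 12843 CPM. For Cyp1b1 the same fit gave a midpoint of 3.51 µg/kg (1.77 to 6.95 within 1 SE) and a top of 333 CPM, but no plateau was seen within the tested doses. With a slope fixed at 1 its midpoint was 31.5 µg/kg and with residuals on the CPM scale 35.3 µg/kg, both beyond the highest dose, so the midpoint of Cyp1b1 is not determined by these data.

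**Figure D2:**
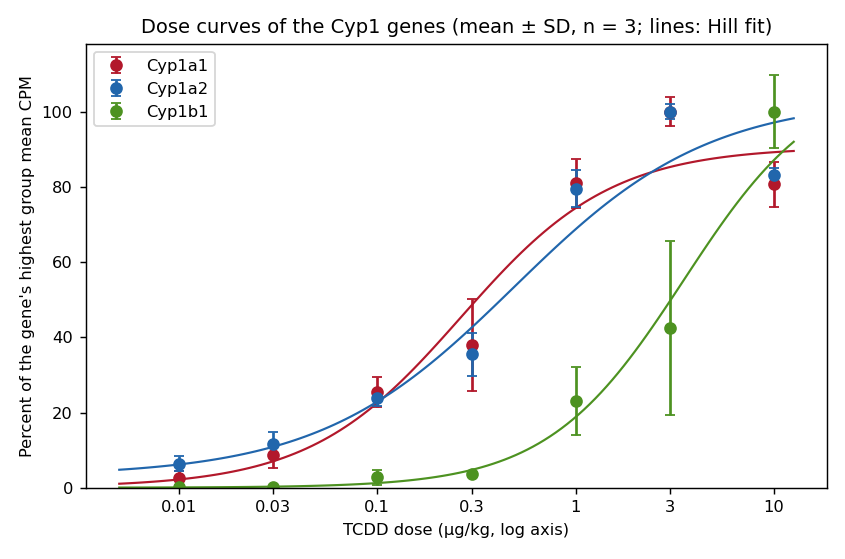
Group mean CPM of each gene as a percent of its own highest group mean (points, ± SD, n = 3) against TCDD dose in µg/kg on a log axis, with the fitted Hill curves as lines. At 1 µg/kg Cyp1a1 stood at 80.9% and Cyp1a2 at 79.5% of their highest means, and Cyp1b1 at 23.0%.

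The ratio of Cyp1a1 to Cyp1a2 counts within a library does not depend on library scaling, and it showed where the neighbours moved together. In the vehicle libraries it was 0.0122, 0.0132 and 0.0137, so replicate 1, which was high for both genes, kept the same proportion. At 0.01 µg/kg it was 0.166, 0.182 and 0.0499, and at 0.03 µg/kg 0.291, 0.290 and 0.210. From 0.1 to 10 µg/kg the group means differed little, at 0.383 ± 0.0347, 0.379 ± 0.0780, 0.366 ± 0.0113, 0.360 ± 0.0197 and 0.350 ± 0.030 in order of dose (SD, n = 3). These 5 means lie within the spread of the libraries at 0.3 µg/kg (0.289 to 0.429). Over the same doses the mean level of Cyp1a2 went from 23.8% of its highest group mean to 100%, and that of Cyp1a1 from 25.4% to 100%.

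Cyp1b1 did not keep a proportion to its relatives. Relative to Cyp1a2, its log2 count ratio was -10.17 ± 1.11, -8.70 ± 0.704, -8.23 ± 0.947 and -6.56 ± 0.111 in the groups of 0.1, 1, 3 and 10 µg/kg (SD, n = 3). The highest of the 3 libraries at 3 µg/kg was at -7.42 and the lowest at 10 µg/kg at -6.64, so the ratio was still higher at the last dose in every library.

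**Figure D3:**
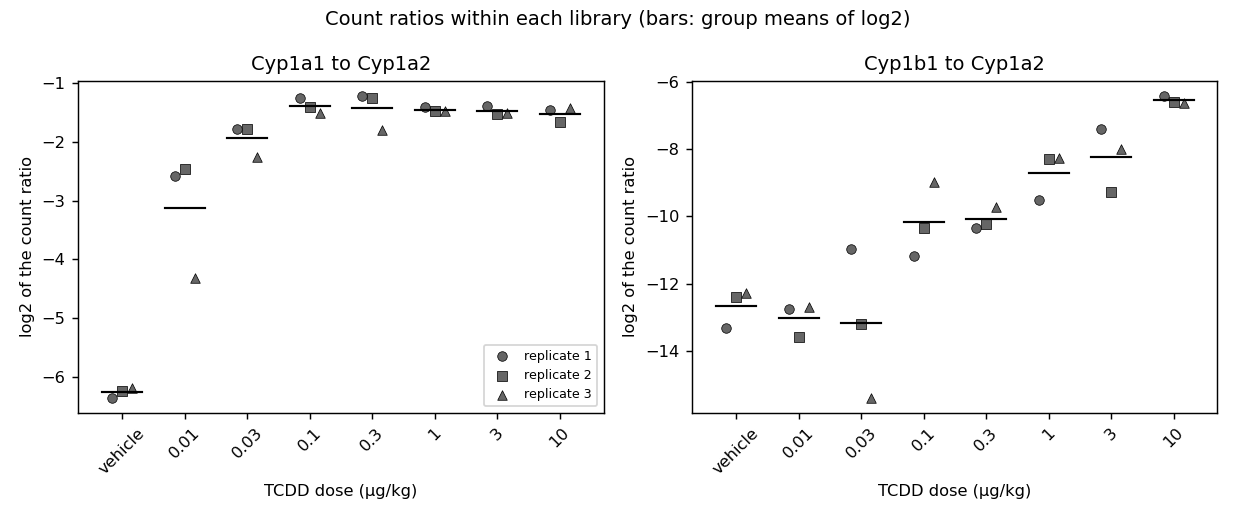
Log2 of the ratio of Cyp1a1 to Cyp1a2 counts (left) and of Cyp1b1 to Cyp1a2 counts (right) in each library by TCDD dose in µg/kg, with bars at group means (n = 3). The left ratio is level from 0.1 to 10 µg/kg, with group means of -1.39 to -1.52, while the right ratio is highest at 10 µg/kg.

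At the top of the series the members parted. Between 3 and 10 µg/kg the log2 difference was -0.31 (SE 0.425) for Cyp1a1, -0.27 (SE 0.236) for Cyp1a2 and 1.23 (SE 0.450) for Cyp1b1. Of the 3, 0 were called, against 2.46% of all genes called higher and 2.83% lower. Each SE and call rests on a spread shared by all 8 groups, not on that of the groups compared. The SD of log2 CPM at 3 and 10 µg/kg was 0.0548 and 0.109 for Cyp1a1 and 0.0278 and 0.0356 for Cyp1a2. For Cyp1b1 it was 0.918 and 0.138. A fit of only these 2 groups also called 0 of the 3, and 279 genes in all. The libraries at 10 µg/kg were below those at 3 µg/kg without overlap for Cyp1a1 and Cyp1a2, as for 13.3% of all genes, and above them for Cyp1b1, as for 11.5%. The lower level of Cyp1a1 and Cyp1a2 depended on scaling. Without TMM the differences were -0.12 and -0.08 and the libraries of both genes overlapped, with Cyp1a2 from 31292 to 34646 CPM in the 3 µg/kg group and from 29922 to 31871 CPM in the 10 µg/kg group. TMM factors ran from 1.08 to 1.11 in the latter and from 0.898 to 1.01 in the former, and leaving them out moved the median log2 difference of all genes from -0.01 to 0.18. The Cyp1b1 libraries at 10 µg/kg were above those at 3 µg/kg with and without TMM, and the log2 difference was 0.87 without replicate 2 of 3 µg/kg, its low library. Alignments that were not unique, counted for no gene, were 22.1% ± 0.927 of table totals for the 3 µg/kg rats against 32.0% ± 2.85 for the 10 µg/kg rats (SD, n = 3). Their part in these values was not tested.

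The spread between rats of a dose was not the same along the series. It was widest at 0.01 µg/kg for Cyp1a1 and at 0.03 µg/kg for Cyp1b1, and for Cyp1a2 in vehicle and at 0.01 µg/kg. For Cyp1a1 the SD of log2 CPM among the 3 libraries was 1.52 at 0.01 µg/kg, larger than or equal to that of 99.5% of genes tested at that dose, and 0.0548 at 3 µg/kg, where 3.59% of genes had as small a value or smaller. The highest library was 7.21 times the lowest at 0.01 µg/kg and 1.07 times at 3 µg/kg. Cyp1a2 went from an SD of 0.502 in vehicle to 0.0278 at 3 µg/kg (percentile 0.984) and 0.0356 at 10 µg/kg. Without TMM the spread at 3 µg/kg was wider, at 32756 ± 1717 CPM for Cyp1a2 against 34186 ± 659 CPM with it. For Cyp1a1 the values were 11794 ± 810 against 12305 ± 472 CPM (SD, n = 3). The percentiles are over all genes tested, without matching for level. The Cyp1b1 SD was 1.59 at 0.03 µg/kg, where it rests on 1 to 28 counts. In the groups of 0.1, 0.3, 3 and 10 µg/kg it was 0.985, 0.238, 0.918 and 0.138, and that at 3 µg/kg was at percentile 96.2 of genes tested. Pooled over the 8 groups the SD was 0.635 for Cyp1a1, 0.300 for Cyp1a2 and 0.783 for Cyp1b1, beside a median of 0.290 over all genes tested. The group at 0.01 µg/kg weighed most in the pooled value of Cyp1a1, and that at 0.03 µg/kg in the value of Cyp1b1. An SD from 3 libraries is itself imprecise, and these values were not tested.

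**Figure D4:**
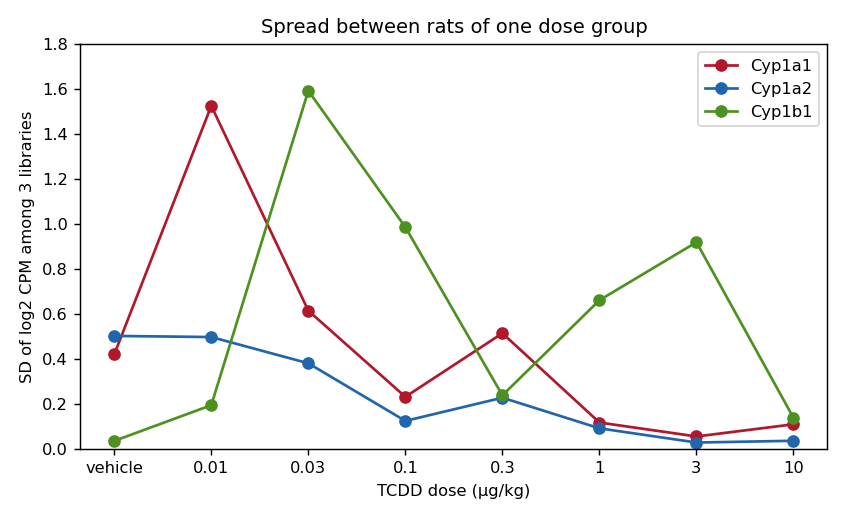
SD of log2 CPM among the 3 libraries of each group, for Cyp1a1, Cyp1a2 and Cyp1b1, by TCDD dose in µg/kg. The SD of Cyp1a1 is highest at 0.01 µg/kg (1.52) and that of Cyp1b1 at 0.03 µg/kg (1.59), while the 3 genes lie between 0.0356 and 0.138 at 10 µg/kg.

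Whether a rat above its dose group for one member was also above it for another is not fixed by the members' dose response. This was tested on deviations of log2 CPM from the group mean over the 24 libraries. Pairs of other genes were not examined, so the values below have no background to be set against. Cyp1a1 and Cyp1a2 deviated together, with r = 0.865 (permutation p = 0.00019, two-sided, 100000 resamples within groups; adjusted over 3 pairs 0.00057) and rho = 0.864 (permutation p = 0.00033, adjusted 0.00099). Their deviations had the same sign in 18 of 24 libraries. The relation was not seen at 3 and 10 µg/kg, where the deviations were small. At 3 µg/kg they were 0.0624, -0.0224 and -0.0401 for Cyp1a1 and -0.0271, 0.0284 and -0.00127 for Cyp1a2. At 10 µg/kg they were 0.0756, -0.125 and 0.0492 for Cyp1a1 and 0.0213, 0.0198 and -0.0411 for Cyp1a2. Without the 2 libraries with the largest Cyp1a1 deviations, replicates 2 and 3 at 0.01 µg/kg, r was 0.837. The libraries that were low for Cyp1a1 at 0.01, 0.03 and 0.3 µg/kg were low for Cyp1a2 as well, and all of these were replicate 3. Replicate 3 lay below its group mean in 7 of 8 groups for Cyp1a1 and in 8 of 8 for Cyp1a2. With the means of the replicate numbers removed as well, as a block, r was 0.788 (adjusted permutation p = 6e-05). Those shuffles were within dose groups and did not keep the replicate means removed, so that p is approximate. For Cyp1b1 a relation was not detected, either over all 24 libraries or in the groups with more counts given below. Its 9 libraries below 0.1 µg/kg held 1 to 28 counts. Its r was 0.115 with Cyp1a1 (permutation p = 0.679, adjusted 0.929; rho = -0.0435, permutation p = 0.858, adjusted 0.874) and 0.0577 with Cyp1a2 (permutation p = 0.929, adjusted 0.929; rho = -0.0383, permutation p = 0.874, adjusted 0.874). With the 2 most distant libraries left out, r came to 0.167 and 0.0579. Without replicate 3 at 0.03 µg/kg r was -0.115 and -0.226. In the 15 libraries of the 5 groups with at least 30 counts of both genes in each library, r was -0.320 with Cyp1a1 (permutation p = 0.156, adjusted 0.188; rho = -0.521, permutation p = 0.0615) and -0.334 with Cyp1a2 (permutation p = 0.188, adjusted 0.188; rho = -0.375, permutation p = 0.227). At 3 µg/kg Cyp1b1 was lowest in replicate 2, with 56.4 CPM, or 50.6 CPM without TMM. Cyp1a2 in that library was the highest of its group with TMM, 34862 CPM, and the lowest without it, 31292 CPM. The labels name no batch, so no values within batches can be given.

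**Figure D5:**
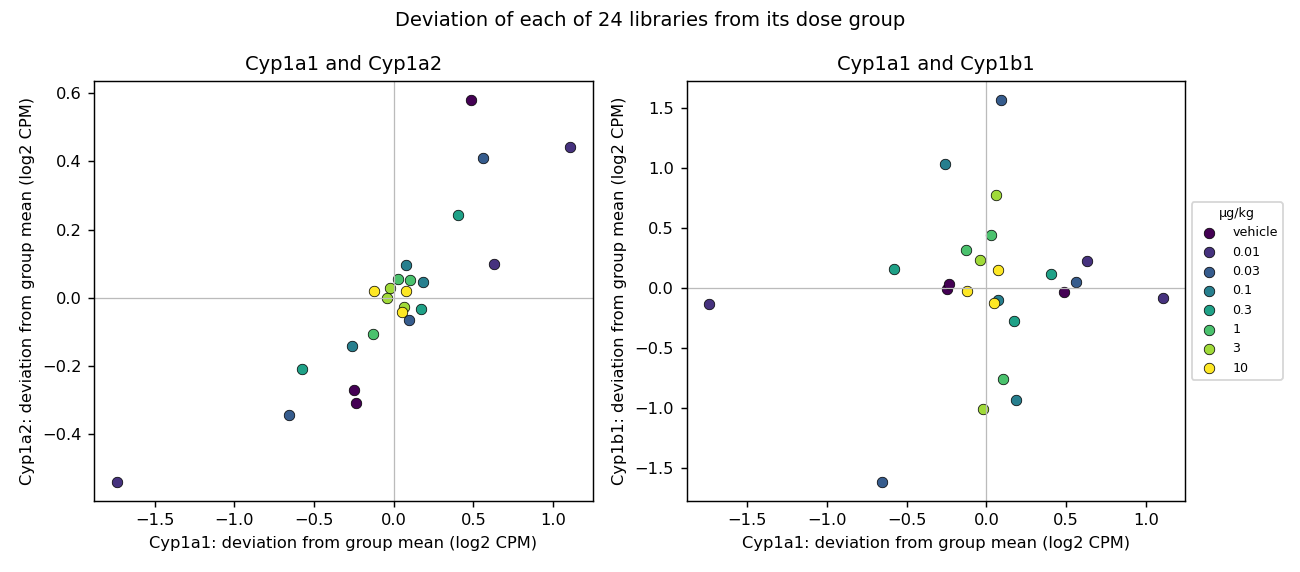
Deviation of each of the 24 libraries from its dose group mean in log2 CPM, Cyp1a1 against Cyp1a2 (left) and against Cyp1b1 (right), coloured by TCDD dose in µg/kg. The left points run along a rising line (r = 0.865), the right points have r = 0.115, and the widest Cyp1a1 deviations are at 0.01 µg/kg.

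Over all 24 libraries, dose included, the gene with the pattern most like Cyp1a1 was Cyp1a2 (r of log2 CPM 0.954). The nearest ID outside the family was ENSRNOG00000026110 (r = 0.905), which stood at 8.43 ± 2.72, 26.4 ± 2.61, 61.1 ± 2.88 and 49.2 ± 7.52 CPM in vehicle and in the groups of 0.1, 3 and 10 µg/kg (SD, n = 3). Like Cyp1a1 and Cyp1a2 it had its highest mean at 3 µg/kg. The nearest to Cyp1b1 was ENSRNOG00000047433 (r = 0.987), at 1.66 ± 0.127, 79.2 ± 35.1, 1359 ± 49.6 and 2016 ± 311 CPM in the same groups (SD, n = 3). Its highest mean, like that of Cyp1b1, was at 10 µg/kg, and it was also the ID nearest to Cyp1a2 (r = 0.972). Between the members themselves r was 0.943 for Cyp1a2 with Cyp1b1 and 0.848 for Cyp1a1 with Cyp1b1. These coefficients describe likeness across shared libraries and doses and carry no test.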

How the data were processed

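RNA was measured in 24 rat livers in 8 groups of 3. The deposited files hold raw counts for each Ensembl gene ID as whole numbers. Per the labels' protocols, RNA was extracted with TRIzol and libraries were made with an Illumina RNA kit. The submitters' processing notes name HTSeq 0.6.1, DESeq, TopHat 1.4.1, cutadapt 1.4.1, FastQC 0.11.2 and SAMtools 0.1.2, without order or settings. The sources used here do not give genome build, annotation release or strand setting, so reads shared by Cyp1a1 and Cyp1a2, or with overlapping genes, are uncertain. The 5 HTSeq summary rows (35.8% to 47.5% of a table) name no gene and were left out.

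Counts were analysed with edgeR 4.0.16 in R 4.3.3: filterByExpr kept 12496 of 18198 detected IDs, TMM scaled the libraries, and a quasi-likelihood model with a mean per group was fitted to all 24 libraries. P-values were adjusted by Benjamini-Hochberg over all genes tested, with calls below 0.05. SE was the log2 fold change divided by the square root of F, so it reflects a gene's spread over all 8 groups. Hill curves were fitted to log2(CPM + 0.25) with SciPy 1.17.1. Deviations and likeness used a prior count of 2 in log2 CPM. The edgeR and DESeq2 steps were tested on simulated data.

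The members and lists were chosen with earlier results of these data known. Named IDs were the members and the single most similar ID to Cyp1a1 and to Cyp1b1. The lists of receptor target genes and partners and of liver cell type markers could not be applied, since 0 of 47357 rows of the RefSeq table hold an Ensembl ID. Alternatives were RLE scaling, DESeq2 1.42.0, other low-count filters, a block for replicate number, a fit of 2 groups, other settings of the Hill curve and of the prior count, and leaving out each library. Analyses without scaling and over well-covered groups were added after seeing the data.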

Additional observations from a re-analysis of the deposited data

Results flagged for a closer look

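Alignments that were not unique averaged 32.0% ± 2.85 of a table at 10 µg/kg against 24.1% ± 0.797 in vehicle (SD, n = 3). This is above the control level, in alignments that no gene count includes. How many of these alignments touch Cyp1a1, Cyp1a2 or Cyp1b1 was not analysed here.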

How the results depend on the processing

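Of 271 alternative values of a member's fold change against vehicle, 268 kept their direction and their side of the threshold, 2 were no longer called and 1 became called. Of 233 for adjacent doses 220 did, with 7 calls lost and 6 gained, and no sign changed in either set. At 0.01 µg/kg 2 members were called by DESeq2 (15 genes in all) and 0 in a fit of the 2 groups (0 genes), which called 1 at 0.03 µg/kg (3 genes). Cyp1b1 did not pass the low-count filter in those fits of 2 groups, nor in that of 0.03 against 0.01 µg/kg. It has no value there and is not among those counted above. Between 0.3 and 1 µg/kg 2 members were called with the replicate block and with DESeq2, and 0 without scaling and in a fit of the 2 groups. These fits called 9, 28, 7 and 6 genes in all. DESeq2 called 2 between 0.03 and 0.1 µg/kg (12 genes). Leaving out single libraries gave 0 to 1 called members for each of these steps and left the number called against vehicle as it was. The midpoint dose was 0.22 to 0.379 µg/kg for Cyp1a1, 0.413 to 0.561 µg/kg for Cyp1a2 and 2.90 to 4.78 µg/kg for Cyp1b1 over omissions of 1 library. That of Cyp1b1 moved to 35.3 µg/kg with residuals on the CPM scale and 31.5 µg/kg with a slope of 1. The cause was not tested. Co-variation of Cyp1a1 and Cyp1a2 stayed called, with r of 0.827 to 0.926 over omissions and 0.788 with the replicate block, whose permutation p is approximate. That of Cyp1b1 with Cyp1a1 ranged from -0.115 to 0.182 and with Cyp1a2 from -0.226 to 0.127, both negative without replicate 3 at 0.03 µg/kg. In the 5 groups with at least 30 counts of both genes in every library they were -0.32 and -0.334 (adjusted permutation p = 0.188 for both). Rats with the same number in vehicle and a dose group did not deviate together throughout, with correlations from -0.146 to 0.377 and 13 of 21 over 0.1, and at 0 of 7 doses did all 3 exceed 0.1. The numbers were therefore not taken to pair the rats, although replicate 3 lay below its group mean in 8 of 8 groups for Cyp1a2 and 7 of 8 for Cyp1a1. For Cyp1a1 replicate 1 did so in 0 of 8. With the number as a block, 183 genes in place of 115 were called at 0.1 µg/kg against vehicle. Between 3 and 10 µg/kg the block called 934 in place of 661, and it lowered the number for no comparison. Some structure shared by number may therefore remain. Depth limits Cyp1b1 below 0.1 µg/kg, where libraries held 1 to 28 counts.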
